A study of Mus musculus with 4 samples.

Results

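Mature dendritic cells that carry Ccr7 and Fscn1 were described in CD45+ cells sorted from 2153L mouse mammary tumours. The cells were chosen by their own counts of 11 genes, and a cell was taken when it held at least 1 UMI of Ccr7 and of Fscn1, at least 1 UMI among Ccl22, Il4i1 and Cacnb3, none of Cd3d, Cd3e and Cd3g, and under 10 UMIs of C1qa, C1qb and C1qc together. A UMI is a counted RNA molecule. Of 36287 cells that passed the cell filter, 139 met this rule: 25 in vehicle, 15 with ORIN1001, 77 with docetaxel and 22 with the combination. They are called mature DC here.

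Dendritic cells take up antigen in tissue and present it to T cells. When a conventional dendritic cell matures it loses most of its uptake receptors, puts MHC class II and costimulatory molecules on its surface and induces Ccr7, the receptor for the lymph node chemokines Ccl19 and Ccl21. Fscn1, or fascin, bundles actin in its long dendrites. In tumours such cells are known for holding both activating signals, such as Il12b and Cd40, and inhibitory ones, such as Cd274 and Pdcd1lg2. Both conventional lineages, cDC1 and cDC2, can give rise to this state.

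2153L is a tumour from a genetically engineered mouse model, grown as a transplant in female Balb/c mice, in the mammary fat pad. All groups carried the same tumour and were treated for 8 days: with vehicle, with ORIN1001 at 150 mg/kg, with docetaxel at 20 mg/kg, or with both agents at these doses, called the combination. ORIN1001 blocks the RNase of IRE1α, which senses unfolded protein in the endoplasmic reticulum and cuts Xbp1 mRNA so that it can be spliced. Docetaxel is a taxane that stabilises microtubules. Each group was 1 library, and the sources used here do not give the number of mice behind it, so a treatment and its library cannot be told apart and no test was made. All intervals in brackets are 95% intervals that cover counting error only. Cells of 1 library often differ by far more than that, so the number of cells behind a value is given with it.

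The 4 libraries had median depths of 3916 to 4538 UMIs per cell. Mature DC were deeper, with medians of 13829 UMIs in vehicle, 12255 with ORIN1001, 12682 with docetaxel and 12781.5 with the combination. Their UMIs summed to 322962, 195910, 1055273 and 252072 in the same order. Between 95 and 128 cell barcodes were shared by each pair of libraries, and 0 were shared between the mature DC of any pair. A barcode of 3 mature DC also occurred in another library, on a cell that was no mature DC.

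The values that chose the cells were well above the limits in most of them. Ccr7 stood at exactly 1 UMI in 2 of the 139 cells and Fscn1 in 6. All 3 of Ccl22, Il4i1 and Cacnb3 were detected in 80 cells and only 1 of them in 15. The highest sum of C1q UMIs in a mature DC was 4, and the lowest in a cell left out by that limit was 17. Among 194 cells with both Ccr7 and Fscn1, 12 were left out for lack of a further gene, 33 for a Cd3 UMI and 10 for C1q. Of the 33 with Cd3, 3 held a single Cd3 UMI. The 33 were spread unevenly, with 4 in vehicle, 6 with ORIN1001, 12 with docetaxel and 11 with the combination. Beside them stood 25, 15, 77 and 22 mature DC in the same order. Shares with all 33 counted in were not computed. Fscn1 was low in other gated cells, with at most 60.7 CPM in any gate and library, 1.59, 0, 0.932 and 1.30 CPM in gated cDC1 and 1.84, 0.344, 14.6 and 0.378 CPM in gated macrophages, in the order vehicle, ORIN1001, docetaxel and combination. CPM are counts per 1000000 of the UMIs summed over the cells of a library. Fscn1 is a rule gene, and cells that met the rule were taken out of the gates. Its low level there is thus a description and no check of the label.

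Genes that the rule did not use were checked against the label. All 4 libraries held Zbtb46, a transcription factor of conventional dendritic cells, in 18 of 25, 8 of 15, 49 of 77 and 12 of 22 cells. Cd74, the invariant chain of MHC class II, was found in 24 of 25, 15 of 15, 77 of 77 and 22 of 22 cells. Cd209a, the gene that marks gated cDC2, was at 0 in 3 libraries and in 2 of 77 cells with docetaxel, and Xcr1, a receptor of cDC1, was at 21.7 CPM in vehicle, 0 with ORIN1001, 1.90 with docetaxel and 3.97 with the combination. None of the 18 listed genes for uptake and pattern recognition reached a mean of 100 CPM. The T cell gene Trac was at 0 UMIs in all libraries. The 8 T cell markers summed to 3 UMIs in vehicle, 9 with ORIN1001, 38 with docetaxel and 10 with the combination. The rule itself used 3 of these 8, the Cd3 genes, and so held them at 0. NK cell markers summed to 0 to 3.97 CPM and fibroblast and endothelial markers to 0 to 5.10 CPM.

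Some mature DC held RNA of other cells. The 8 neutrophil markers summed to 4598 CPM in vehicle, 3645 CPM with ORIN1001, 692 CPM with docetaxel and 460.2 CPM with the combination, and none of the 8 was at 0 in vehicle or docetaxel. The 6 B and plasma cell markers summed to 170.3, 582, 105.2 and 11.9 CPM in the same order. Cells with 10 or more UMIs of S100a8 and S100a9 numbered 4, 2, 2 and 1, and those with a Cd79a or Ms4a1 UMI 2, 2, 1 and 1. Leaving all of these out kept 125 of the 139 cells, 19 in vehicle, 12 with ORIN1001, 74 with docetaxel and 20 with the combination. Their part in the results was not tested beyond the values given without these 14 cells, which are called the values without the doubted cells. Scrublet marked 1 mature DC with ORIN1001 and 1 with docetaxel as doublets.

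Mature DC were most frequent in the docetaxel library. They made up 0.244% (0.158 to 0.360) of filtered cells in vehicle, 0.171% (0.0959 to 0.282) with ORIN1001, 0.923% (0.729 to 1.152) with docetaxel and 0.246% (0.154 to 0.372) with the combination. The docetaxel interval overlapped none of the other 3, and those 3 overlapped each other. Docetaxel stood 3.78-fold (2.38 to 6.20) above vehicle, and the combination stood at 1.01-fold (0.541 to 1.86) of vehicle and at 0.267-fold (0.158 to 0.433) of docetaxel. ORIN1001 alone stood at 0.701-fold (0.344 to 1.38) of vehicle. Without the doubted cells the shares were 0.186%, 0.137%, 0.887% and 0.224%. Neutrophils make up much of each library, and among cells outside the neutrophil gate the shares were 0.360%, 0.343%, 1.40% and 0.313%.

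The other conventional dendritic cells did not follow the same order. cDC1 were gated by at least 2 of Xcr1, Clec9a and Cadm1, and cDC2 by Cd209a, each with 10 or more UMIs of H2-Aa. cDC1 numbered 33 in vehicle, 22 with ORIN1001, 53 with docetaxel and 73 with the combination, and cDC2 29, 13, 39 and 55. Both stood higher with the combination than with docetaxel as point values, at 1.28-fold (0.890 to 1.87) for cDC1 and 1.32-fold (0.857 to 2.04) for cDC2, with intervals that include 1. Of all mature DC, cDC1 and cDC2 together, mature DC were 28.7% (19.5 to 39.4) in vehicle, 30.0% (17.9 to 44.6) with ORIN1001, 45.6% (37.9 to 53.4) with docetaxel and 14.7% (9.43 to 21.4) with the combination. The docetaxel and combination intervals did not overlap. These shares are of sorted cells in 1 library each, and the difference between mature DC and the gated cells was not tested.

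**Figure D1:**
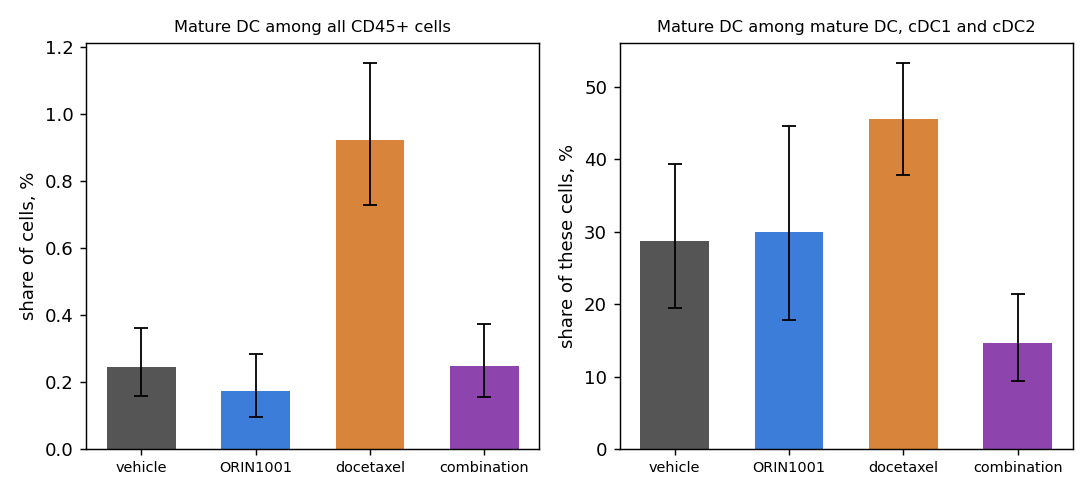
Share of mature DC among all filtered CD45+ cells (left, percent) and among mature DC, cDC1 and cDC2 together (right, percent) in the 4 libraries. Bars are single libraries and lines are exact 95% binomial intervals, which cover counting error only: docetaxel is highest on both sides at 0.923% and 45.6%, and the combination lowest on the right at 14.7%.

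The genes used by the rule differed among the libraries, and their values are given as a description. Ccr7 stood at 3195 CPM in vehicle, 3522 with ORIN1001, 4332 with docetaxel and 5173 with the combination. Fscn1 stood at 3883 CPM in vehicle, 7233 with ORIN1001, 3859 with docetaxel and 3658 with the combination, highest with ORIN1001 and within a narrow range in the other 3. Il4i1, an amino acid oxidase that limits T cells, stood at 802 CPM in vehicle, 597 with ORIN1001, 760.0 with docetaxel and 964 with the combination. Cacnb3, a calcium channel subunit, stood at 743 CPM in vehicle, 1052 with ORIN1001, 839 with docetaxel and 813 with the combination. Ccl22, a chemokine that draws regulatory T cells through Ccr4, stood at 1718 CPM in vehicle, 955 with ORIN1001, 298 with docetaxel and 302 with the combination. In vehicle 1 cell held 506 of the 555 Ccl22 UMIs, and the median cell held 1.87, 1.80, 1.05 and 0.789 UMIs per 10000 in vehicle, ORIN1001, docetaxel and the combination, so the summed levels do not describe most cells. That same cell held 153 of the 162 vehicle UMIs of Ccl17, a chemokine for the same receptor.

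Across all genes, the fewest passed 2-fold between the combination and docetaxel. Of 1429 genes with a mean of at least 100 CPM over the 4 libraries and outside the rule, 3.57% were higher and 5.53% lower by at least 2-fold as point values with ORIN1001 against vehicle. With docetaxel against vehicle these were 2.1% and 2.1%, and with the combination against vehicle, over 1428 genes, 4.13% and 3.85%. Against docetaxel, 0.91% were higher and 1.33% lower with the combination, and against ORIN1001, 8.68% and 4.83%. At any size, 49.2% of genes were higher and 50.8% lower with ORIN1001 against vehicle, 56.5% and 43.5% with docetaxel and 55.3% and 44.7% with the combination. The combination had 49.6% higher and 50.4% lower than docetaxel, and 54.2% and 45.8% against ORIN1001. Comparisons that share a library are not independent of each other.

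H2-M2 stood lower in the libraries with docetaxel than in those without it, and Vim did so in its summed level. H2-M2 encodes a nonclassical MHC class I molecule and Vim the intermediate filament vimentin. H2-M2 stood at 613 CPM in vehicle, 1516 with ORIN1001, 136 with docetaxel and 47.6 with the combination, with a UMI in 14 of 25, 9 of 15, 30 of 77 and 2 of 22 cells. Against vehicle the log2 ratio of CPM was 1.31 (1.04 to 1.57) with ORIN1001, -2.18 (-2.50 to -1.86) with docetaxel and -3.69 (-4.66 to -2.85) with the combination. Vehicle and ORIN1001 were high and both libraries that had docetaxel low. With every cell thinned to 5000 UMIs, H2-M2 was seen in 11 of 22 cells in vehicle, 9 of 14 with ORIN1001, 17 of 73 with docetaxel and 2 of 18 with the combination, or 50% (28.2 to 71.8), 64.3% (35.1 to 87.2), 23.3% (14.2 to 34.6) and 11.1% (1.4 to 34.7). Thinning left out 3, 1, 4 and 4 shallower cells. Leaving out the doubted cells gave log2 ratios of 1.44, -2.42 and -3.75.

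Vim showed the same order of libraries in its summed level, most of which a few cells gave in vehicle. It stood at 3582 CPM in vehicle, 3997 with ORIN1001, 1133 with docetaxel and 801 with the combination, with a UMI in 24 of 25, 13 of 15, 61 of 77 and 15 of 22 cells. The median cell held 5.59, 21.3, 3.49 and 2.50 UMIs of Vim per 10000 in vehicle, ORIN1001, docetaxel and the combination. Log2 ratios against vehicle were 0.16 (0.03 to 0.29), -1.66 (-1.78 to -1.54) and -2.16 (-2.38 to -1.94), and without the doubted cells 0.28, -1.92 and -2.60. In vehicle 3 cells held 820 of the 1157 Vim UMIs, and 3 cells held 450 of 783 with ORIN1001, 445 of 1196 with docetaxel and 116 of 202 with the combination. Without the 3 cells highest for Vim in each library, a choice made after seeing the data, Vim stood at 1251, 2198, 780 and 412 CPM. Vehicle then lay near the level that docetaxel had with all its cells, and ORIN1001 alone stayed well above the others. Gated cDC1 held 1303, 981, 1671 and 1459 CPM and gated cDC2 2599, 2963, 3657 and 3451 CPM in the same order of libraries, with docetaxel above vehicle in both. H2-M2 was at 0 UMIs in gated cDC1, cDC2 and pDC of every library.

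Single cells with H2-M2 differed from those without it. Cells with an H2-M2 UMI had less Cd74, with median UMIs per 10000 of 62.3 against 203 in vehicle, 69.4 against 160.2 with ORIN1001, 59.1 against 252 with docetaxel and 62.7 against 243 with the combination. They had more Fscn1, at 36.1 against 19.2, 124 against 12.02, 52.9 against 28.6 and 77.1 against 24.2. Ccl5, a chemokine for T cells, was likewise higher in them, at 33.4 against 3.46, 337 against 9.60, 49.3 against 11.9 and 51.5 against 16.6. These splits held 14 and 11 cells in vehicle, 9 and 6 with ORIN1001, 30 and 47 with docetaxel and 2 and 20 with the combination. Median depths of cells with and without H2-M2 were 13502.5 against 13829 UMIs in vehicle, 15458 against 11712 with ORIN1001, 12553.5 against 12848 with docetaxel and 10520.5 against 12781.5 with the combination.

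Vim did not split in the same way in every library. In cells with H2-M2 its median was 19.5 UMIs per 10000 in vehicle and 60.7 with ORIN1001, against 2.89 and 4.38 in cells without. With docetaxel the medians were 3.33 with H2-M2 and 4.27 without, and with the combination 1.67 in 2 cells and 2.50 in 20. The splits were chosen after the values were seen and no test was made.

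**Figure D2:**
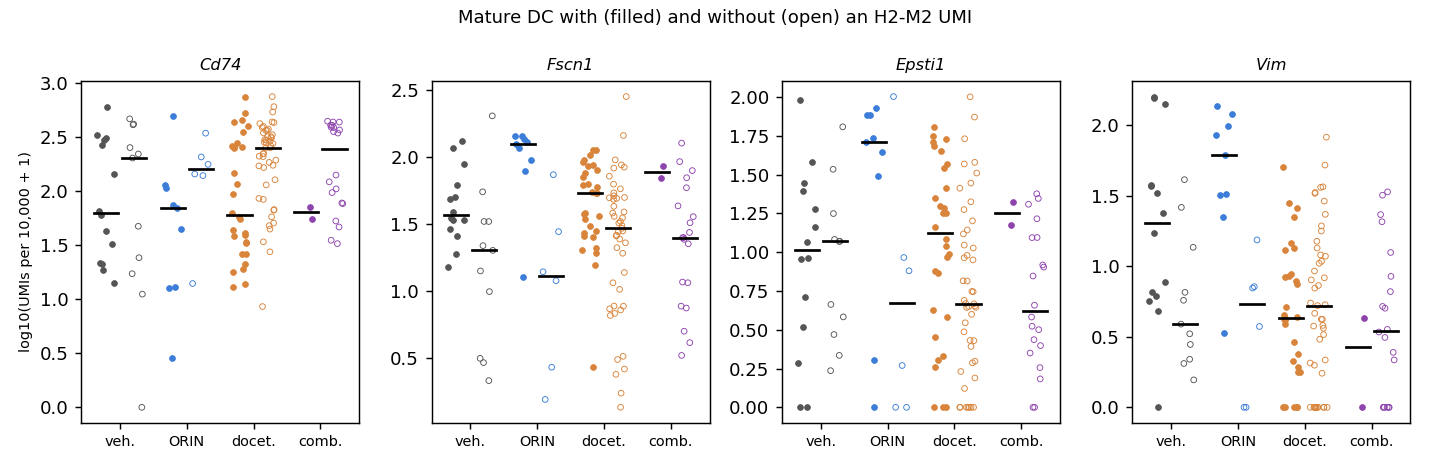
Levels of Cd74, Fscn1, Epsti1 and Vim in single mature DC with (filled) and without (open) an H2-M2 UMI, by library, as log10 of UMIs per 10000 plus 1; each point is a cell and each line the median of its cells. Cd74 lies lower and Fscn1 higher in filled cells of all 4 libraries, while Vim lies higher in filled cells in vehicle and ORIN1001 (19.5 and 60.7 against 2.89 and 4.38 UMIs per 10000).

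H2-M2 is shown with the sequence before its start because mature DC were the only gated cells to hold it in quantity. The 250 bases before the RefSeq start, chr17:37483555-37483804 on the minus strand of GRCm38.p6, hold 2 matches to the kappaB consensus on either strand, which is the sequence bound by NF-kappaB dimers. Capitals mark them.
H2-M2: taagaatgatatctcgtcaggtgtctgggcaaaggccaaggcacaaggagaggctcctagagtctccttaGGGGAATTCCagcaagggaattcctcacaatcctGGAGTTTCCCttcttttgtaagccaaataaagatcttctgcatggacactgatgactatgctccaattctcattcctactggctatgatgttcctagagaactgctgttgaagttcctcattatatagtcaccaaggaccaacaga
The matches begin 180 and 146 bases before the start. The same consensus was in 8.23% of 27025 genes with a RefSeq promoter, in 0 of the 4 rule genes that matched that table, and in 0 of 13 matched genes of the list of mature DC genes outside the rule. A match is a description of the sequence and not a bound site.

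With ORIN1001, the summed RNA of mature DC held more of the genes that mark maturation and MHC class I than in vehicle. It held less of those for MHC class II and chaperones. The list of 17 other mature DC genes that passed the filter had 15 higher and 2 lower, with a median log2 ratio of 0.53, where 49.2% of all genes were higher and the median was -0.01. Examples were Serpinb6b, a serine protease inhibitor, at 1.05 (0.74 to 1.37), and Tmem123, a membrane glycoprotein, at 0.64 (0.48 to 0.80). In contrast Ccl17 stood at -2.03 and Cd40, the receptor by which T cells activate dendritic cells, at -0.87 (-1.34 to -0.42). In vehicle 1 cell held 153 of 162 UMIs of Ccl17 and 84 of 166 UMIs of Cd40. Without the cell highest for it in each library, Cd40 stood at 270 CPM in vehicle, 218 with ORIN1001, 344 with docetaxel and 447 with the combination. With docetaxel 10 of the 17 were higher with a median of 0.04, and with the combination 9 with a median of 0.12. Among all genes 56.5% and 55.3% were higher in these 2 comparisons. Leaving out the doubted cells gave 15 higher with ORIN1001 at 0.67, 7 with docetaxel at -0.09 and 8 with the combination at -0.02, so the last 2 medians turned their direction. The list holds genes chosen as mature DC genes, so its level in these cells is not a finding.

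All 12 MHC class I and immunoproteasome genes were higher with ORIN1001, at a median of 0.35, and 11 of 12 with docetaxel at 0.24 and 10 of 12 with the combination at 0.11. Over all genes 49.2%, 56.5% and 55.3% were higher in the same order. H2-K1, a classical class I heavy chain, stood at 5295 CPM in vehicle, 7703 with ORIN1001, 6425 with docetaxel and 5693 with the combination. B2m, the light chain, stood at 4357 CPM in vehicle, 5676 with ORIN1001, 3843 with docetaxel and 3285 with the combination. None of the 12 passed 2-fold in any of these comparisons. Among the 125 cells that were not doubted, 12, 10 and 5 of the 12 were higher, with medians of 0.45, 0.13 and -0.05, the last of opposite sign.

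MHC class II genes went the other way with ORIN1001 in their summed levels. Of 11 genes, 9 were lower, at a median of -0.56, where 50.8% of all genes were lower. Docetaxel and the combination had medians of 0.05 and 0.01. H2-Aa, the class II alpha chain, stood at 12042 CPM in vehicle, 7442 with ORIN1001, 10696 with docetaxel and 10644 with the combination, and its log2 ratio with ORIN1001 was -0.69 (-0.78 to -0.61). H2-Ab1, the beta chain, was at -0.85 (-1.01 to -0.70) and Cd74 at -0.53 (-0.59 to -0.46). The median cell did not follow the summed level for every gene. Per 10000 UMIs it held 64.7 of Cd74 in vehicle and 107.3 with ORIN1001, and 18.4 and 23.4 of the class II gene H2-Eb1. It held less H2-Aa with ORIN1001, at 91.0 in vehicle and 75.2, and less H2-Ab1, at 7.51 and 4.11. With the doubted cells left out, 10 of 11 were lower with ORIN1001 at a median of -0.88, 9 with docetaxel at -0.10 and 8 with the combination at -0.18, so the last 2 turned from their direction. Gated cDC1 held 14702, 14614, 15958 and 15162 CPM of H2-Aa, a gene that the gate itself used. Cells with an H2-M2 UMI, which had less Cd74 as given above, were 14 of 25 in vehicle and 9 of 15 with ORIN1001. Their part in the class II levels was not tested.

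Genes for endoplasmic reticulum chaperones and other targets of spliced Xbp1, the transcription factor made by IRE1α, were lower with ORIN1001. Of 8 that passed the filter 7 were lower, at a median of -0.56, with 4 of 8 lower and a median of -0.03 with docetaxel and 4 of 8 lower and 0.02 with the combination. Over all genes 50.8%, 43.5% and 44.7% were lower in the same order. Canx, the lectin chaperone calnexin, stood at 183 CPM in vehicle, 66.4 with ORIN1001, 147 with docetaxel and 171 with the combination, with a log2 ratio of -1.46 (-2.45 to -0.58). Hspa5, the main chaperone BiP, stood at 235 CPM in vehicle, 163 with ORIN1001, 198 with docetaxel and 190.4 with the combination, and its log2 ratio of -0.53 (-1.17 to 0.09) has an interval that includes 0. Sec61b, a subunit of the translocon, was at -0.74 (-1.21 to -0.28), and Pdia3 was the one higher, at 0.09 (-0.42 to 0.60). The same 7 of 8 count and a median of -0.47 came without the doubted cells, which gave docetaxel 4 lower at 0.01 and the combination 5 lower at -0.07. Xbp1 itself was below the filter, at 46.4 CPM in vehicle, 51.0 with ORIN1001, 86.2 with docetaxel and 91.2 with the combination, from 15, 10, 91 and 23 UMIs.

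Hspa5 and Calr are shown because 4 of the 8 genes, Calr, Canx, Hsp90b1 and Hspa5, hold the endoplasmic reticulum stress element in the 250 bases before their start. The element was searched as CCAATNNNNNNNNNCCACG on both strands and marked in capitals, and it was in 0.13% of 27025 genes. The stretches are chr2:34771840-34772089 on the plus strand and chr8:84846932-84847181 on the minus strand, from RefSeq on GRCm38.p6.
Hspa5: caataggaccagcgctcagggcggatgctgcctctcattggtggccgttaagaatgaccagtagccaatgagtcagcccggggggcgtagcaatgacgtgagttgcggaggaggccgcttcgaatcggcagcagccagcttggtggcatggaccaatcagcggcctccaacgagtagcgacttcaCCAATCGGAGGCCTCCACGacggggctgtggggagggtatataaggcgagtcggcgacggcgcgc
Calr: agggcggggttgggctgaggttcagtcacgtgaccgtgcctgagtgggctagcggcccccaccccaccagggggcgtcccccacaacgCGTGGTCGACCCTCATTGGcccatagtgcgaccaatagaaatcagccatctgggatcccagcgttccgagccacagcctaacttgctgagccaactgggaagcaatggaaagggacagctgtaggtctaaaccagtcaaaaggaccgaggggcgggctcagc
The marked match begins 65 bases before the start in Hspa5 and 162 bases before it in Calr. Calr, the chaperone calreticulin, stood at 176 CPM in vehicle, 148 with ORIN1001, 169 with docetaxel and 194 with the combination, a log2 ratio of -0.25 (-0.95 to 0.42) with ORIN1001.

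Single genes with the largest ratios with ORIN1001 came from several groups. Highest by the naming rule were Idi1, an enzyme of isoprenoid synthesis, at 1.78 (1.08 to 2.51), the interferon-inducible GTPase Tgtp1 at 1.72 (0.95 to 2.53), the receptor Slamf7 at 1.69 (1.21 to 2.19), Mab21l3 at 1.53 (0.83 to 2.25) and the actin-severing protein Dstn at 1.39 (0.82 to 1.99). Slamf7 stood at 170.3 CPM in vehicle, 551 with ORIN1001, 224 with docetaxel and 278 with the combination, with a UMI in 17 of 25, 12 of 15, 60 of 77 and 20 of 22 cells. Ccl5 was at 6546 CPM in vehicle, 17156 with ORIN1001, 4065 with docetaxel and 4753 with the combination, a log2 ratio of 1.39 (1.31 to 1.47), and its median cell held 20.7, 37.0, 14.2 and 22.9 UMIs per 10000. Irf8, a transcription factor of cDC1 and of dendritic cell maturation, was at 0.94 (0.72 to 1.15) and the interferon-induced gene Epsti1 at 1.24 (1.06 to 1.42). Lowest were Wfdc17 at -4.22 (-6.52 to -2.63), Irf7 at -3.84 (-4.77 to -3.04), the surface protein gene Ly6a at -2.96 (-3.83 to -2.21), the immediate early gene Egr1 at -2.71 (-3.62 to -1.92) and S100a4 at -2.69 (-3.33 to -2.10). Irf7, the transcription factor that amplifies type I interferon, stood at 951 CPM in vehicle, 66.4 with ORIN1001, 725 with docetaxel and 635 with the combination and was found in 13 of 25, 1 of 15, 48 of 77 and 10 of 22 cells. In vehicle 3 cells held 250 of its 307 UMIs and with ORIN1001 1 cell held all 13.

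Most type I interferon genes had a higher summed level in the docetaxel-treated libraries than in vehicle. These genes are induced when cells sense interferon-α or -β and many of them block virus replication. Of 12 that passed the filter, 10 were higher with docetaxel against vehicle, at a median log2 ratio of 0.73, where 56.5% of all genes were higher and the median of all genes was 0.06. With the combination 9 of 12 were higher at 0.60, where 55.3% of all genes were higher. At least 2-fold higher were 5 of 12 with docetaxel and 3 of 12 with the combination, where 2.1% and 4.13% of all genes were. Isg15, a ubiquitin-like modifier, stood at 629 CPM in vehicle, 342 with ORIN1001, 1379 with docetaxel and 1083 with the combination, a log2 ratio of 1.13 (0.92 to 1.35) with docetaxel and 0.78 (0.52 to 1.05) with the combination. Ifit2, which binds foreign RNA, stood at 24.8 CPM in vehicle, 86.8 with ORIN1001, 125 with docetaxel and 167 with the combination from 4 of 25, 3 of 15, 21 of 77 and 5 of 22 cells. With the filter at 200 CPM the list's median for the combination was -0.14. In the combination library 1 cell held 134 of the 273 Isg15 UMIs.

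With ORIN1001 alone the interferon list was split, with 6 of 12 higher and a median of -0.23. Of all genes 49.2% were higher with ORIN1001, at a median of -0.01. A single cell held 29 of 29 UMIs of Ifit1, 57 of 67 of Isg15 and 22 of 23 of Rsad2 in that library. Leaving out the 1 cell that Scrublet marked there gave log2 ratios of -1.46 for Ifit1 and -3.31 for Rsad2, where all cells gave 1.67 and 1.07. Without the doubted cells 2 of 11 that still gave a ratio were higher at a median of -1.51, and Isg15 was at -4.29, while docetaxel and the combination had 9 of 12 higher at 0.51 and 0.37. Bst2, the surface protein tetherin, was lower with ORIN1001 in either case, at -1.31 (-1.68 to -0.95) and -1.51, from 23 of 25, 14 of 15, 74 of 77 and 19 of 22 cells. Isg15 in gated cDC1 stood at 604, 430.0, 800.5 and 592 CPM and in gated cDC2 at 582, 342, 917 and 690.1 CPM, in the order vehicle, ORIN1001, docetaxel and combination, lowest with ORIN1001 and highest with docetaxel in both.

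Isg15 and Ifit1 are shown because their sequences carry the interferon-stimulated response element, searched as GAAANNGAAA on both strands in the 250 bases before the start. It was in 3.46% of 27025 genes and in 4 of the 10 listed interferon genes that matched RefSeq, Bst2, Ifit1, Isg15 and Rsad2. Capitals mark the matches, which overlap in Isg15. The stretches are chr4:156200819-156201068 on the minus strand and chr19:34640639-34640888 on the plus strand of GRCm38.p6.
Isg15: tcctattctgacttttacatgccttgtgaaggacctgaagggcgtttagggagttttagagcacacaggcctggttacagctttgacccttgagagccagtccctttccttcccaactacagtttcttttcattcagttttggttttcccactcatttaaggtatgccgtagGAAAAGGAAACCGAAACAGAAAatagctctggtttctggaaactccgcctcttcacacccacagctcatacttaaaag
Ifit1: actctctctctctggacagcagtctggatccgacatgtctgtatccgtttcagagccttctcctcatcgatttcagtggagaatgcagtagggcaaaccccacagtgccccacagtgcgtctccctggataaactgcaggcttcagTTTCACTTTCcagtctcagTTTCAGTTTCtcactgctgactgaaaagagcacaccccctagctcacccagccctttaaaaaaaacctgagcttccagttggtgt
Isg15 holds 3 matches that begin 78, 72 and 66 bases before the start, and Ifit1 holds 2 at 104 and 85 bases. Ifit1 encodes a relative of Ifit2 and stood at 46.4 CPM in vehicle, 148 with ORIN1001, 119 with docetaxel and 127 with the combination.

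Docetaxel went with other named differences from vehicle. Nrip1, a corepressor of nuclear receptors, stood at 80.5 CPM in vehicle, 189 with ORIN1001, 324 with docetaxel and 325 with the combination, with a UMI in 13 of 25, 14 of 15, 64 of 77 and 18 of 22 cells and log2 ratios of 2.01 (1.43 to 2.64) with docetaxel and 2.01 (1.36 to 2.71) with the combination. Pcyt1a, the rate-limiting enzyme of phosphatidylcholine synthesis, stood at 49.5 CPM in vehicle, 76.6 with ORIN1001, 137 with docetaxel and 194 with the combination, and the splicing factor gene Sfpq at 83.6 CPM in vehicle, 138 with ORIN1001, 221 with docetaxel and 214 with the combination. All 3 were higher in both docetaxel-treated libraries than in vehicle, with intervals that exclude 0, and ORIN1001 lay between. Gated cDC1 held 55.5, 39.7, 45.7 and 54.7 CPM and gated cDC2 103, 42.7, 77.2 and 109.9 CPM of Nrip1 in the same order. Ccnd3, a cyclin, was higher with docetaxel alone, at 111 CPM in vehicle, 128 with ORIN1001, 287 with docetaxel and 87.3 with the combination, with 60 of its 303 docetaxel UMIs in 1 cell.

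**Figure D3:**
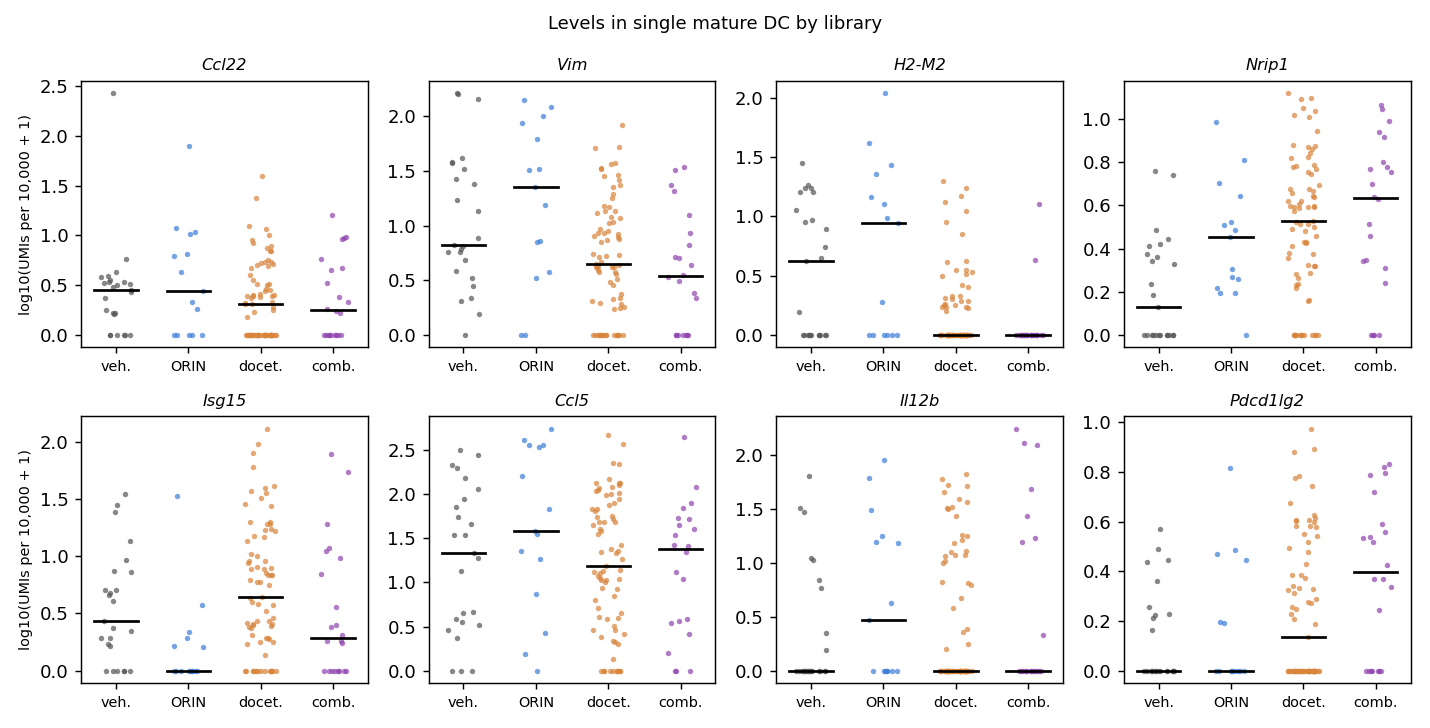
Levels of 8 genes in single mature DC of the 4 libraries, as log10 of UMIs per 10000 plus 1; each point is a cell and each line the median of a library. H2-M2 is seen in a larger share of cells in vehicle and ORIN1001, a few vehicle cells stand far above the vehicle median for Vim (5.59 UMIs per 10000, against 3.49 with docetaxel), Nrip1 is low in vehicle, 1 vehicle cell stands far above the rest for Ccl22, and Il12b is carried by a minority of cells.

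Lower with docetaxel were the immediate early gene Egr1 at -2.97 (-3.42 to -2.54), Klf2, a transcription factor of lymphocyte trafficking, at -2.60 (-3.18 to -2.03), the lysosomal protease Ctsd at -2.20 (-2.73 to -1.68), H2-M2 and Vim. All 9 genes of the list that cell dissociation is known to induce were lower with docetaxel, at a median of -0.67, and 8 of 9 with ORIN1001 at -0.48 and with the combination at -0.78. Over all genes 43.5%, 50.8% and 44.7% were lower in the same order. Jun stood at 607 CPM in vehicle, 383 with ORIN1001, 287 with docetaxel and 353 with the combination and Fos at 839 CPM in vehicle, 429 with ORIN1001, 556 with docetaxel and 282 with the combination. The part of tissue handling in these differences was not tested. Ctsd is abundant in neutrophils, with 1757, 1792, 1487 and 1573 CPM, and without the doubted cells its log2 ratio was -1.74 with docetaxel and that of Klf2 -0.79. Klf2 was also lower with docetaxel in gated cDC1, at 1053, 351, 451 and 348 CPM. S100a8, a neutrophil gene, stood at 1307 CPM in vehicle, 1496 with ORIN1001, 121 with docetaxel and 39.7 with the combination in the same cells.

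Tubulin genes, which encode the target of docetaxel, were lower in both docetaxel-treated libraries. Of 6, 5 were lower with docetaxel at a median of -0.75 and 5 with the combination at -0.40, while ORIN1001 had 3 lower and a median of -0.01. Of all genes 43.5% were lower with docetaxel and 44.7% with the combination. Tuba1c stood at 502 CPM in vehicle, 684 with ORIN1001, 266 with docetaxel and 361 with the combination, with log2 ratios of -0.91 (-1.20 to -0.63) and -0.47 (-0.86 to -0.10). Tubb2a stood at 288 CPM in vehicle, 276 with ORIN1001, 156 with docetaxel and 151 with the combination and Tubb2b at 219.8 CPM in vehicle, 148 with ORIN1001, 117 with docetaxel and 111 with the combination. Tuba1b was the exception, at 0.13 (-0.11 to 0.39) and 0.42 (0.10 to 0.73). Gated cDC1 held 229.9, 129, 176 and 222 CPM and cDC2 208, 203, 207 and 212 CPM of Tuba1c. Leaving out the doubted cells gave medians of -0.81 and -0.45, and 0.23 with ORIN1001, where 5 of 6 were then higher. Cdkn1a, a cell cycle inhibitor and p53 target, was lower than in vehicle in all 3 treated libraries, at 697 CPM in vehicle, 250.1 with ORIN1001, 348 with docetaxel and 266 with the combination.

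Il12b and Pdcd1lg2, an activating and an inhibitory signal to T cells, had their highest summed level with the combination, and Cd274 did not. Il12b, the p40 subunit of IL-12, stood at 715 CPM in vehicle, 1342 with ORIN1001, 758 with docetaxel and 2436 with the combination, with a log2 ratio of 1.77 (1.55 to 1.99) against vehicle and 1.68 (1.53 to 1.84) against docetaxel. A UMI of it was found in 9 of 25, 8 of 15, 31 of 77 and 8 of 22 cells, so the share of cells did not differ in the same way: thinned to 5000 UMIs it was seen in 31.8% (13.9 to 54.9), 42.9% (17.7 to 71.1), 35.6% (24.7 to 47.7) and 38.9% (17.3 to 64.3). With the combination 1 of the 8 cells held 292 of the 614 UMIs and 2 held 458, and the median cell had 0. Without the 2 cells highest for Il12b in each library its level was 291, 528, 616 and 702 CPM. Pdcd1lg2, the PD-1 ligand PD-L2, stood at 68.1 CPM in vehicle, 81.7 with ORIN1001, 129 with docetaxel and 246 with the combination, found in 10 of 25, 6 of 15, 39 of 77 and 15 of 22 cells, with a log2 ratio of 1.85 (1.13 to 2.62) against vehicle. The other PD-1 ligand Cd274 stood at 375 CPM in vehicle, 475 with ORIN1001, 389 with docetaxel and 302 with the combination, and its 3 intervals against vehicle all include 0. Of the 6 inhibitory and regulatory genes that passed the filter, 3 were higher and 3 lower with the combination, at a median of 0.23. Among all genes 55.3% were higher in that comparison.

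Other genes highest with the combination were Tm4sf5, a tetraspan membrane protein, at 152 CPM in vehicle, 66.4 with ORIN1001, 291 with docetaxel and 567 with the combination, and Gbp2, a GTPase induced by interferon-γ, at 89.8 CPM in vehicle, 194 with ORIN1001, 213 with docetaxel and 329 with the combination. Log2 ratios against vehicle were 1.90 (1.43 to 2.40) and 1.87 (1.25 to 2.54). Of 7 interferon-γ genes 5 were higher with the combination, with a median of 1.07, and 5 with ORIN1001 at 0.56, while docetaxel had 4 and 0.11. Over all genes 55.3%, 49.2% and 56.5% were higher in the same order. Leaving out the doubted cells gave 0.78, 0.42 and -0.01. Aldh1a2, which makes retinoic acid, was below the filter at 12.4 CPM in vehicle, 10.2 with ORIN1001, 42.6 with docetaxel and 119 with the combination, from 4 of 25, 1 of 15, 28 of 77 and 10 of 22 cells, and was chosen after its values were seen. Timd4, a receptor for phosphatidylserine, stood at 89.8 CPM in vehicle, 0 with ORIN1001, 106 with docetaxel and 258 with the combination. It had 0 UMIs with ORIN1001, so its log2 ratio of 4.07 in the combination against ORIN1001 was computed with 3 counts for the ORIN1001 library and is a lower bound.

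Lower with the combination were Ctsd at -5.89 (-11.21 to -3.37), from 1 UMI with the combination, H2-M2, Cdk2ap2 at -2.58 (-3.63 to -1.66), Dap, which encodes a death-associated protein, at -2.36 (-3.55 to -1.33), and Vim. Dap stood at 183 CPM in vehicle, 260.3 with ORIN1001, 101 with docetaxel and 35.7 with the combination, found in 17 of 25, 9 of 15, 35 of 77 and 7 of 22 cells. Epsti1 stood at 1356 CPM in vehicle, 3206 with ORIN1001, 1283 with docetaxel and 639 with the combination, lower with the combination than in each of the other libraries. Against docetaxel alone few genes passed 2-fold. The naming rule took Il12b, Timd4, Hivep1 at 1.15 (0.64 to 1.64), Ly6e at 1.14 (0.84 to 1.44) and Ier2 at 1.06 (0.62 to 1.48) as highest, and Ctsd at -3.69 (-9.02 to -1.15), Asprv1 at -1.73 (-2.48 to -1.05), Ccnd3 at -1.72 (-2.41 to -1.09), Hebp1 at -1.63 (-2.62 to -0.79) and Atf3 at -1.56 (-2.54 to -0.71) as lowest.

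Against ORIN1001 alone, the combination was higher for Pltp and Timd4, both at 0 UMIs with ORIN1001, and for Wfdc17, Ly6a at 3.40 (2.65 to 4.27) and Irf7 at 3.26 (2.44 to 4.20). It was lower for H2-M2 at -4.99 (-5.96 to -4.17), Dap at -2.87 (-4.07 to -1.83), Epsti1 at -2.33 (-2.59 to -2.08), Vim at -2.32 (-2.55 to -2.09) and Ankrd33b at -2.12 (-3.14 to -1.20). Pltp, a phospholipid transfer protein, is a gene of pDC, which held 1660.1, 1436, 1767 and 1562 CPM, and in mature DC it was found in 4 of 25, 0 of 15, 21 of 77 and 5 of 22 cells. The MHC class II list had 10 of 11 higher than with ORIN1001, at a median of 0.57, and the chaperone list 7 of 8 at 0.60. Of all genes 54.2% were higher in this comparison and the median of all genes was 0.07.

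Costimulation and NF-kappaB genes stayed within 2-fold of vehicle in most cases, as most of all genes did. By at least 2-fold, 3.57% of all genes were higher and 5.53% lower with ORIN1001. With docetaxel these were 2.1% and 2.1%, and with the combination 4.13% and 3.85%. Of 5 costimulation and adhesion genes, all were lower with ORIN1001 at a median of -0.51, 4 with docetaxel at -0.38 and 3 with the combination at -0.07. Over all genes 50.8%, 43.5% and 44.7% were lower in the same order. Without the doubted cells 4, 4 and 3 of the 5 were lower, at medians of -0.48, -0.41 and -0.31. Cd40 is among the 5, with 84 of its 166 vehicle UMIs in 1 cell as given above. Cd86, a ligand of CD28, stood at 201 CPM in vehicle, 138 with ORIN1001, 275 with docetaxel and 238 with the combination. Cd83, which stabilises class II at the surface, stood at 1254 CPM in vehicle, 878 with ORIN1001, 1165 with docetaxel and 1377 with the combination, and Icam1, the ligand of LFA-1, at 598 CPM in vehicle, 449 with ORIN1001, 377 with docetaxel and 333 with the combination. The 15 NF-kappaB genes had medians of 0.12, 0.06 and 0.21, and of 0.32, 0.08 and 0.15 without the doubted cells. Relb, the subunit tied to dendritic cell maturation, stood at 768 CPM in vehicle, 924 with ORIN1001, 896 with docetaxel and 968 with the combination, found in 24 of 25, 14 of 15, 76 of 77 and 21 of 22 cells. Rel stood at 384 CPM in vehicle, 485 with ORIN1001, 599.8 with docetaxel and 611 with the combination, with log2 ratios of 0.64 (0.36 to 0.93) and 0.67 (0.32 to 1.02) in the docetaxel-treated libraries, and the inhibitor Nfkbia at 2099 CPM in vehicle, 1802 with ORIN1001, 1210.1 with docetaxel and 1459.9 with the combination.

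Genes for movement were mostly within 2-fold too, as most of all genes were. Of 11 migration and cytoskeleton genes 5 were higher with ORIN1001, 6 with docetaxel and 8 with the combination, with medians of -0.21, 0.09 and 0.11, and of -0.09, -0.0046 and 0.05 without the doubted cells. Over all genes 49.2%, 56.5% and 55.3% were higher in the same order. Actb, or β-actin, stood at 22495 CPM in vehicle, 22949 with ORIN1001, 24004 with docetaxel and 25394 with the combination. Cd63, a tetraspanin of late endosomes, was the only one of the 11 past 2-fold in these comparisons, at -1.13 (-1.42 to -0.84) with the combination. Of all genes 3.85% were lower by at least 2-fold with the combination. Among survival genes Bcl2a1b stood at 1009 CPM in vehicle, 755 with ORIN1001, 1225 with docetaxel and 1504 with the combination and Cflar, an inhibitor of caspase-8, at 173 CPM in vehicle, 316 with ORIN1001, 179 with docetaxel and 175 with the combination. The medians of the 7 survival and death genes were -0.42, 0.05 and -0.02, and without the doubted cells -0.33, 0.07 and 0.07.

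**Figure D4:**
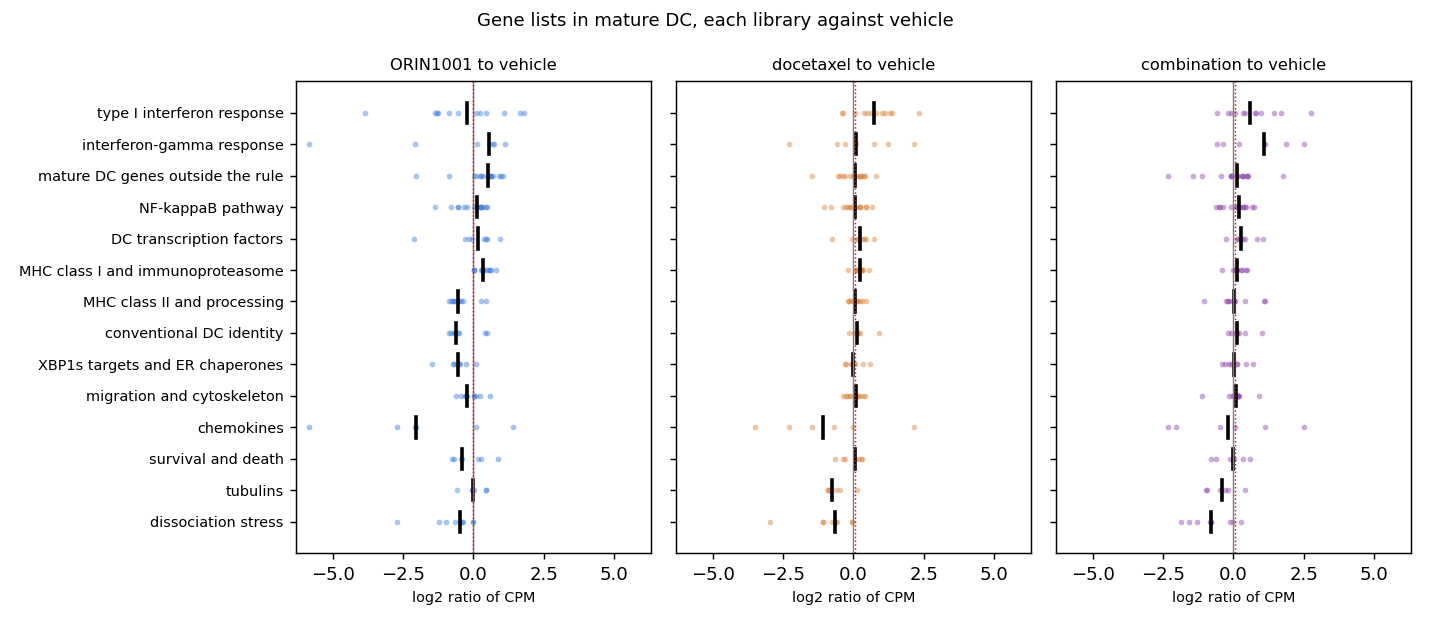
Log2 ratio of CPM against vehicle for genes of 14 lists in mature DC of the ORIN1001, docetaxel and combination libraries; each point is a gene that passed 100 CPM, black bars are list medians and the red dotted line is the median of all genes. Type I interferon genes lie right of the line with docetaxel (median 0.73) and the combination (0.60), MHC class II and chaperone genes left of it with ORIN1001 (both -0.56), and tubulins left of it with docetaxel (-0.75).

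Transcription factors and receptors of cytokines made up 2 further lists. Of 8 dendritic cell transcription factors 4 were higher with ORIN1001, 6 with docetaxel and 7 with the combination, with medians of 0.17, 0.24 and 0.29, and of 0.30, 0.35 and 0.33 without the doubted cells. Over all genes 49.2%, 56.5% and 55.3% were higher and 50.8%, 43.5% and 44.7% lower, in the same order. Bhlhe40, a repressor of Il10 in other cells, stood at 601 CPM in vehicle, 490.0 with ORIN1001, 819 with docetaxel and 1083 with the combination. Etv3 stood at 409 CPM in vehicle, 551 with ORIN1001, 685 with docetaxel and 845 with the combination, found in 24 of 25, 13 of 15, 73 of 77 and 21 of 22 cells. Of 6 genes for IL-4, TSLP and common gamma chain signalling all were higher with the combination, at a median of 0.48, 5 with docetaxel at 0.24 and 3 with ORIN1001 at 0.29. Without the doubted cells 5 were higher with the combination at 0.29, 4 with docetaxel at 0.07 and 4 with ORIN1001 at 0.29. Il7r, a receptor chain for IL-7 and TSLP, stood at 105 CPM in vehicle, 102 with ORIN1001, 147 with docetaxel and 266 with the combination, found in 12 of 25, 4 of 15, 39 of 77 and 15 of 22 cells. Of 5 hypoxia and glycolysis genes 4 were lower with ORIN1001 at -0.79, 3 with docetaxel at -0.16 and 4 with the combination at -0.50. Without the doubted cells 4 were lower with ORIN1001 at -1.40, 2 with docetaxel at 0.10 and 3 with the combination at -0.39. The 4 PERK and ATF4 genes, of another stress sensor of the endoplasmic reticulum, had 4, 3 and 4 lower.

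Most cytokines and chemokines listed were carried by few cells. Il1b, an inflammatory cytokine that neutrophils also make, stood at 1474 CPM in vehicle, 393 with ORIN1001, 606 with docetaxel and 809 with the combination, with a log2 ratio of -1.28 (-1.46 to -1.11) with docetaxel that was -0.44 without the doubted cells. Cxcl9, a chemokine for CXCR3+ T cells, stood at 291 CPM in vehicle, 5.10 with ORIN1001, 59.7 with docetaxel and 635 with the combination from 5 of 25, 1 of 15, 13 of 77 and 4 of 22 cells. Cxcl10 stood at 43.3 CPM in vehicle, 10.2 with ORIN1001, 195 with docetaxel and 246 with the combination, with 83 of 206 docetaxel UMIs in 1 cell. Cxcl2, a neutrophil chemokine, stood at 1319 CPM in vehicle, 199 with ORIN1001, 116 with docetaxel and 317 with the combination from 9 of 25, 1 of 15, 17 of 77 and 4 of 22 cells. Cxcl16 was held by most cells, at 1220.0 CPM in vehicle, 1307 with ORIN1001, 1196 with docetaxel and 1281 with the combination from 24 of 25, 13 of 15, 72 of 77 and 22 of 22 cells, and its level was nearly the same in all libraries. Il10 had 1 UMI in vehicle and 0 in the other libraries.

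The differences in Nrip1 and in the summed level of Vim were seen in mature DC and not to the same degree in gated cDC1 and cDC2. That difference between cell types was not tested. H2-M2 was nearly absent from the gated cells, so a difference between libraries could not be seen there. Epsti1 stood at 66.6, 77.2, 74.5 and 100.2 CPM in cDC1 and 50.1, 96.1, 63.3 and 61.1 CPM in cDC2. Il12b was at 0 in cDC2 and at 0, 2.09, 174 and 70.9 CPM in cDC1. Ccl5 in cDC1 stood at 3.17, 4.17, 179 and 9.76 CPM. Genes of the conventional lineages were low in mature DC: the 12 cDC1 genes summed to 1619 CPM in vehicle, 2445 with ORIN1001, 1164 with docetaxel and 1448 with the combination, most of it Irf8, and the 12 cDC2 genes to 238, 168, 213 and 234 CPM. Fewer cells of one lineage and less RNA per cell cannot be told apart in these sums.

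**Figure D5:**
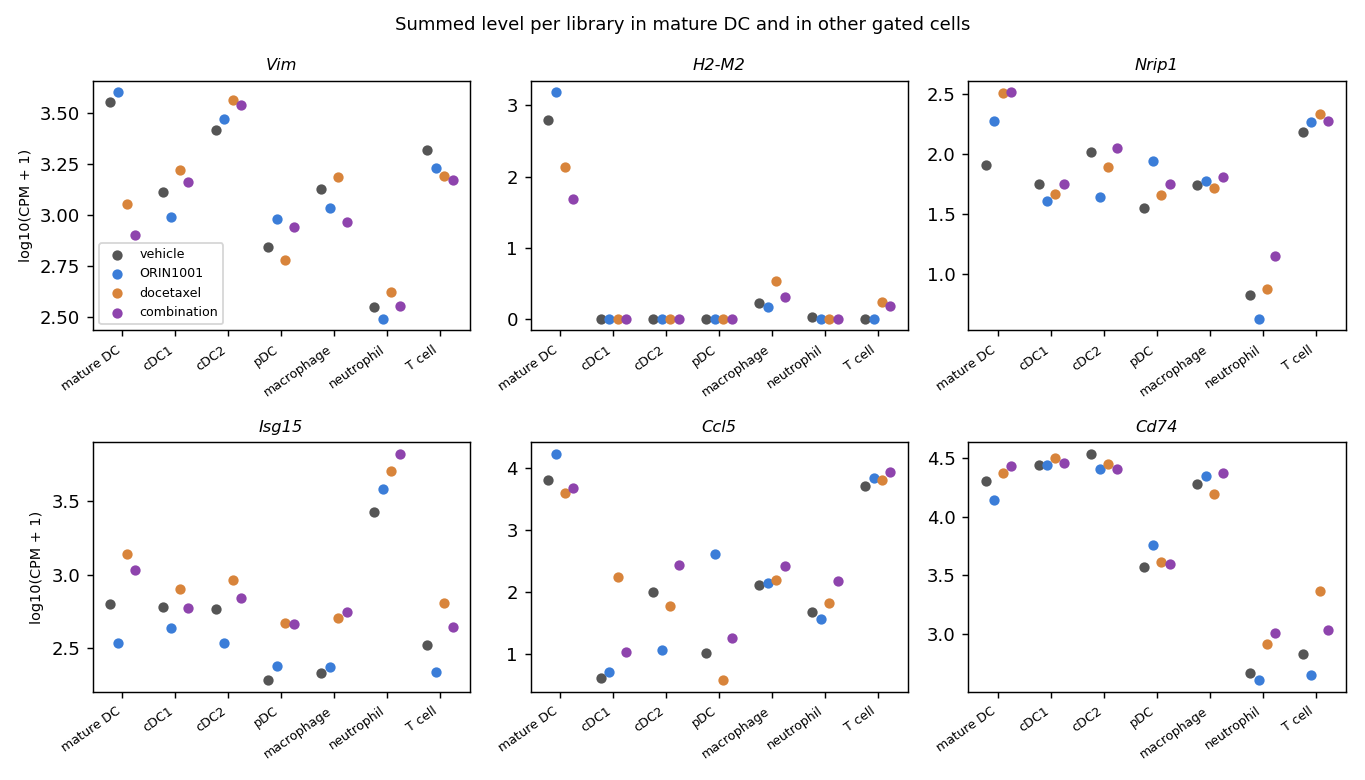
Summed level (log10 of CPM plus 1) of 6 genes in mature DC and in 6 other gated cell types; each point is 1 library. H2-M2 is at most 2.45 CPM in the other gated cells, the summed level of Vim is lower in the 2 docetaxel-treated libraries in mature DC (1133 and 801 CPM), where 3 cells gave 820 of 1157 vehicle UMIs, and not lower with docetaxel in cDC1 or cDC2, and Isg15 is highest with docetaxel in mature DC, cDC1 and cDC2.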

How the data were processed

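The deposited files hold unnormalised UMI counts for 4 droplet 10x 3' libraries, written by Cell Ranger 5.0.1, per the file headers. Per the submitters' processing notes, the build was mm10 and Seurat 4.0.1 was used. Barcodes with 200 or more genes and under 10% mt- UMIs were kept (10239, 8760, 8343 and 8945 for vehicle, ORIN1001, docetaxel and combination). Mature DC, the gates and the 41 gene lists were chosen with earlier results of these data known. The gates were set after the files were seen.

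UMIs were summed over the mature DC of each library and given as CPM, computed here from the deposited counts. Log2 ratios carry exact intervals of 2 Poisson counts, shares exact Clopper-Pearson intervals, both at 95% and for counting error only. For ratios, 3 counts replaced a count of 0, which makes the ratio a bound. Genes with a mean of 100 CPM over the 4 libraries entered counts and medians. A log2 ratio of 1 was called past 2-fold. On simulated counts for docetaxel against vehicle, 95.96% of 1435 true ratios lay in their interval. With 1 library per group no test, p-value or standard error was computed.

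Genes were named by rule: the 5 rule genes, the 5 highest and 5 lowest ratios in each of 5 comparisons (20 or more UMIs in the higher library, a UMI in 20% of its cells, at most 50% of UMIs from 1 cell, interval excluding 0), and up to 4 genes per list. Scrublet, run through scanpy 1.11.5, scored doublets. In the ORIN1001 library, where its own cut marked 0%, the top 7.01% of scores were taken. Marked cells stayed in. Alternatives were stricter and looser membership, other filters, equal weight per cell, median-of-ratios scaling and left-out cells. Promoter sequences came from RefSeq on GRCm38.p6.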

Additional observations from a re-analysis of the deposited data

Results flagged for a closer look

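For 4 named genes the log2 ratios of docetaxel to vehicle and of the combination to ORIN1001 had opposite signs. Each was past 2-fold with an interval that excludes 0 and covers counting error only. With 1 library per group these ratios are not drug effects, and the difference between them was not tested. Cxcl9 stood at a log2 ratio of -2.29 (-2.77 to -1.81) for docetaxel against vehicle and 6.96 (4.46 to 12.27) for the combination against ORIN1001, with UMIs in 5 of 25, 1 of 15, 13 of 77 and 4 of 22 cells of vehicle, ORIN1001, docetaxel and combination. Single cells held 49 and 39 Cxcl9 UMIs in vehicle and 91 with the combination, and the ORIN1001 library had 1 UMI. Il1b stood at -1.28 (-1.46 to -1.11) and 1.04 (0.66 to 1.44). Socs3, an inhibitor of cytokine signalling, stood at -1.07 (-1.44 to -0.70) and 1.05 (0.16 to 2.01). Wfdc17 stood at -1.34 (-1.74 to -0.93) and 3.41 (1.76 to 5.74), with 3 UMIs with ORIN1001. Without the 14 doubted cells, those with a B cell UMI or at least 10 S100a8 and S100a9 UMIs, Il1b stood at -0.44 and 2.46 and Wfdc17 at -0.90 for docetaxel against vehicle, so neither was then past 2-fold in that comparison. For the combination against ORIN1001, Il1b was 0.90 with equal weight per cell and 0.64 without the deepest cell of each library. Cxcl9 stood at -2.56 and 6.54 and Socs3 at -1.03 and 2.49 without the doubted cells.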

How the results depend on the processing

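Each comparison rests on 1 library per group and 15 to 77 cells, which limits all of it. No paired analysis was possible because each group had 1 library. The 5 share ratios stayed within the main interval under all 10 alternatives, the 1 with a Cd3 UMI allowed being chosen after seeing the data. That 1 took in only 3 of the 33 cells left out for Cd3, so it does not show the shares with all 33. The share ratios of docetaxel and ORIN1001 to vehicle and of combination to docetaxel kept their direction. Combination to vehicle turned from 0.01 to -0.07 with 2 UMIs of each gene and -0.20 outside the neutrophil gate, and combination to ORIN1001 from 0.52 to -0.13 outside that gate. Counts past 2-fold moved with the filter. At 200 CPM, higher and lower counts were 19 and 34 for ORIN1001 against vehicle, 7 and 15 for docetaxel, 18 and 28 for the combination, 6 and 7 for combination against docetaxel and 53 and 33 against ORIN1001, where 100 CPM gave 51 and 79, 30 and 30, 59 and 55, 13 and 19, and 124 and 69. At 50 CPM they were 150 and 199, 69 and 66, 141 and 147, 41 and 69, and 276 and 192. With cells of equal weight 29 were higher for combination against docetaxel. Without B cell or neutrophil UMIs 78 were higher and 122 lower for ORIN1001 against vehicle. Among list medians of at least 0.5 in size these reversed, and the cause was not tested: the costimulation median for combination against ORIN1001 to -0.0063 without those cells and with the filter applied again (0.54 over the same genes), the inhibitory median for the same comparison to -0.38 at 200 CPM, the cytokine median to -0.50 at 200 CPM for ORIN1001 and -0.36 at 50 CPM for combination against ORIN1001, and the type I interferon median to -0.14 at 200 CPM for the combination. For smaller medians the report gives the value without those cells beside each that turned and is printed there. Without those cells Cdk2ap2 reversed to 0.12 for docetaxel and 1.18 for combination against ORIN1001, Cxcl2 to -1.87 and Egr1 to -0.71 for combination against docetaxel, and Ifit2 to -0.59 and Rsad2 to -2.44 for ORIN1001. With equal weight per cell Cxcl2 and Egr1 reversed to -0.11 and -0.43 and Ifit1 to -0.043 for the combination. Without the deepest cell of each library, chosen after seeing the data, Cxcl2 and Egr1 stood at -3.20 and -1.51. For ORIN1001, Ifit1, Ifit2 and Rsad2 reversed to -1.50, -1.18 and -3.35 with 2 UMIs of Ccr7 and Fscn1, and to -1.46, -1.14 and -3.31 without Scrublet-marked cells. Median-of-ratios scaling reversed nothing.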

Other observations

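Genes of other lineages were seen in single mature DC and were chosen after their values were seen. In the ORIN1001 library 1 cell held all 13 UMIs of Cd207, the gene of Langerhans cells, and with docetaxel 1 cell held all 13 UMIs of Siglech, a gene of pDC. Ccl22 and Ccl17 were found together in 3 of the 3 vehicle cells with Ccl17 after thinning to 5000 UMIs, in 2 of 2 with ORIN1001, in 12 of 18 with docetaxel and in 3 of 3 with the combination. H2-M2 and Il12b were seen together in 8 of 73 thinned cells with docetaxel, where 9 held H2-M2 alone, 18 held Il12b alone and 38 held neither.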
